A study of Homo sapiens with 12 samples.

Results

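The 8 genes described here encode tubulins and microtubule binding proteins, most of them known from young neurons: *TUBA1A*, *TUBB2B*, *TUBB3*, *MAP2*, *MAP1B*, *DCX*, *STMN2* and *TPPP3*. They were chosen by symbol, and all 8 were present among the 10976 genes of the deposited tables. The values come from total RNA sequencing of cerebral organoids (COs), which are stem cell aggregates grown towards brain tissue. COs were made from the human embryonic stem cell line H1 (WT) and from 2 c-Jun Knockout clones of H1, KO#2 and KO#10, edited with CRISPR-Cas9. All 3 lines went through the same induction of neural differentiation and were sampled on day 12 and day 24, with 2 libraries per line and day. That gave 12 libraries, each from several pooled COs, so that each day had 2 WT and 4 KO libraries. The 4 KO libraries of a day came from 2 clones, and the study's methods state for all experiments that several separate batches were used, without saying which libraries came from separate cultures, so that *p*-values measure the spread between these libraries only. The sample labels give embryonic stem cells as tissue and cell type. At day 24, the stem cell gene *POU5F1* still had values of 75 and 236 in WT, against 3 to 6 in KO.

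Microtubules are hollow polymers of alpha- and beta-tubulin dimers. Neurons build them from particular tubulin isotypes and line them with binding proteins that stabilise, space or destabilise the polymer in axons and dendrites. *TUBA1A* is the main alpha-tubulin of postmitotic neurons, and *TUBB2B* and *TUBB3* are beta-tubulins of the developing brain, *TUBB3* being a classical neuron marker. *MAP2* stabilises dendritic microtubules, *MAP1B* acts in growing axons, and *DCX* (doublecortin) binds the lattice in migrating neurons. *STMN2* is a membrane-bound stathmin that holds tubulin dimers and acts in growth cones. *TPPP3* belongs to the family of tubulin polymerization promoting proteins.

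RefSeq windows (GRCh38.p14) of the 250 bases before a transcription start were matched by symbol for 6 of the 8 genes, 12 windows in all. Since the edited gene encodes a subunit of AP-1, the windows were searched on both strands for the AP-1 element TGAGTCA and the cyclic AMP response element TGACGTCA, and further for the E-box CAGATG and the TATA box core TATAAA. The most upstream windows of the 3 tubulins and *MAP2* are printed from 5′ to 3′ on the strand of the gene, together with that of *TUBB2A*, the nearest relative of *TUBB2B*, so that the members with and without a match can be compared. Capitals mark matches to these motifs.
TUBA1A, chr12:49189081-49189330: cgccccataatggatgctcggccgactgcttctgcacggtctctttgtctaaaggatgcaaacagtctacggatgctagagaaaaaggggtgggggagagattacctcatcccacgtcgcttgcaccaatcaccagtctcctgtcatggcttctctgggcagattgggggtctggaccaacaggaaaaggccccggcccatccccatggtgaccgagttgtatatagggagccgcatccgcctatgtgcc
TUBB2B, chr6:3227654-3227903: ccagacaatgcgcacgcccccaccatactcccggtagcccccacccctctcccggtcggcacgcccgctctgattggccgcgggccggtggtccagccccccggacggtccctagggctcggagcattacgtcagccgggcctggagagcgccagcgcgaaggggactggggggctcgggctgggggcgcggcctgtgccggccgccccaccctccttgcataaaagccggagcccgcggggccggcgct
TUBB2A, chr6:3157545-3157794: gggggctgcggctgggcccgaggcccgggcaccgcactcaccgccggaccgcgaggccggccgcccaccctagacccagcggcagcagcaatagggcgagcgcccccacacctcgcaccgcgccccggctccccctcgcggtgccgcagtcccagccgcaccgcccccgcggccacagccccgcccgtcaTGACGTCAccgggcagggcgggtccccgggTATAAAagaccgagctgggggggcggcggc
TUBB3, chr16:89921675-89921924: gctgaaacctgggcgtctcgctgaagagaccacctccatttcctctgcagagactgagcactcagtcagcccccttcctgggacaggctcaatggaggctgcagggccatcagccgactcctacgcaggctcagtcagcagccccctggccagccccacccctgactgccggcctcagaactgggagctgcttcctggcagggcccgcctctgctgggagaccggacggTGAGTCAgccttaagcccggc
MAP2, chr2:209579082-209579331: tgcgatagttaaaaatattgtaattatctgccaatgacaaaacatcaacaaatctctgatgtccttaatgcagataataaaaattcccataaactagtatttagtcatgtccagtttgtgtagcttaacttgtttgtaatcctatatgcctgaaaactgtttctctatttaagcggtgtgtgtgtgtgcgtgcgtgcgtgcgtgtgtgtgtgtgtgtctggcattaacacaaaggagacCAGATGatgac
The AP-1 element was found in 1 of the 12 member windows, that of *TUBB3* printed here, starting 21 bases before the start site, and in 4.2% of all 35116 windows. The cyclic AMP response element was in none of the member windows and in 1.65% of all windows, and the *TUBB2A* window holds it. The E-box was in 2 member windows (*MAP2*, as printed, and the downstream start of *MAP1B*) and in 12.2% of all. The TATA box core was in 3 member windows (both of *MAP1B* and 1 of *DCX*) and in 10.7% of all. No 2 matches overlapped in the windows of the members. A match describes letters in a window and not a site in use.

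In GRCh38 coordinates, as listed in the deposited tables, *TUBA1A* (ENSG00000167552) lies at chr12:49184686-49189080 on the minus strand. *TUBB2B* (ENSG00000137285) lies at chr6:3223324-3231730 on the minus strand, and *TUBB3* (ENSG00000258947) at chr16:89921392-89938761 on the plus strand. *MAP2* (ENSG00000078018) spans chr2:209424047-209734118 and *MAP1B* (ENSG00000131711) chr5:72107234-72209565, both on the plus strand. *DCX* (ENSG00000077279) lies at chrX:111293779-111412429 on the minus strand, *STMN2* (ENSG00000104435) at chr8:79611117-79666158 on the plus strand and *TPPP3* (ENSG00000159713) at chr16:67389809-67393518 on the minus strand. All 8 are annotated as protein coding in GENCODE 29. The *TUBA1A* interval overlaps *TUBA1C* on the opposite strand and the *TUBB2B* interval overlaps *PSMG4* on the opposite strand, while *TUBB3* overlaps AC092143.1, a protein coding gene model of the same strand that is not among the listed genes. The sources do not say if strand was used in counting, and reads that near-identical tubulin paralogs share may be divided among them, so that the tubulin values carry that uncertainty.

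The deposited values are whole-number scores that the authors had normalized. All 12 libraries had the median 17 and the highest value 5585, with totals of 473637 to 483149, which leaves the sequencing depth unknown and gives no base for counting intervals. Values of different genes are not scaled to length and are not compared as levels here. *JUN*, the edited gene, read 4 to 8 in WT against 13 to 19 in KO at day 12, and 13 to 15 against 29 to 39 at day 24. The transcript was thus not lower in the libraries labelled KO, with log2 fold changes of 1.33 at day 12 (limma adjusted *p* = 0.132) and 1.25 at day 24 (limma adjusted *p* = 0.0184), and every direction given for KO below refers to the libraries so labelled. The paper, by contrast, reports that western blotting found no c-JUN protein in the clones and that RT-qPCR found no transcript in KO COs. Why the deposited scores differ from those assays was not tested. KO#10 replicate 1 stood apart at day 24. Its sum over 6 mesenchyme genes was 2890, against 2070 and 2443 in WT and 134 to 168 in the other 3 KO libraries, and its sum over 6 endoderm and yolk sac genes was 1182, against 6571 and 6713 in WT and 33 to 94. Results are therefore also given without this library. It was chosen on its day 24 values, and among the KO libraries of that day it also lay nearest to WT in the mean of the 8 genes. A larger difference of the 8 genes as a set without it was thus built into the choice and is not independent support.

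The first question was whether the genes differed between KO and WT COs at day 24. The test called 5 of the 8 higher in KO with at least a 2-fold difference (*TUBA1A*, *TUBB2B*, *MAP2*, *MAP1B* and *TPPP3*), none was called lower, and all 8 had a positive log2 fold change, with a median of 1.92. Of all 9289 genes tested, 4.22% were called higher, and the median log2 fold change was 0.01. At an unadjusted limma *p* under 0.05, 1878 of all these genes were higher and 1631 lower. In 7 of the 8 genes the lowest KO library exceeded the highest WT library, an arrangement found in 22.2% of all genes tested. With 2 against 4 libraries an exact permutation test cannot go below 0.0667 (one-sided), so that the calls rest on limma, which borrows the spread across genes. Calls required a *p* under 0.05 after Benjamini-Hochberg adjustment and a difference of 1 or more on the scale log2 (value + 1). In bulk RNA, fewer cells of a type and less RNA per cell cannot be told apart.

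**Figure D1:**
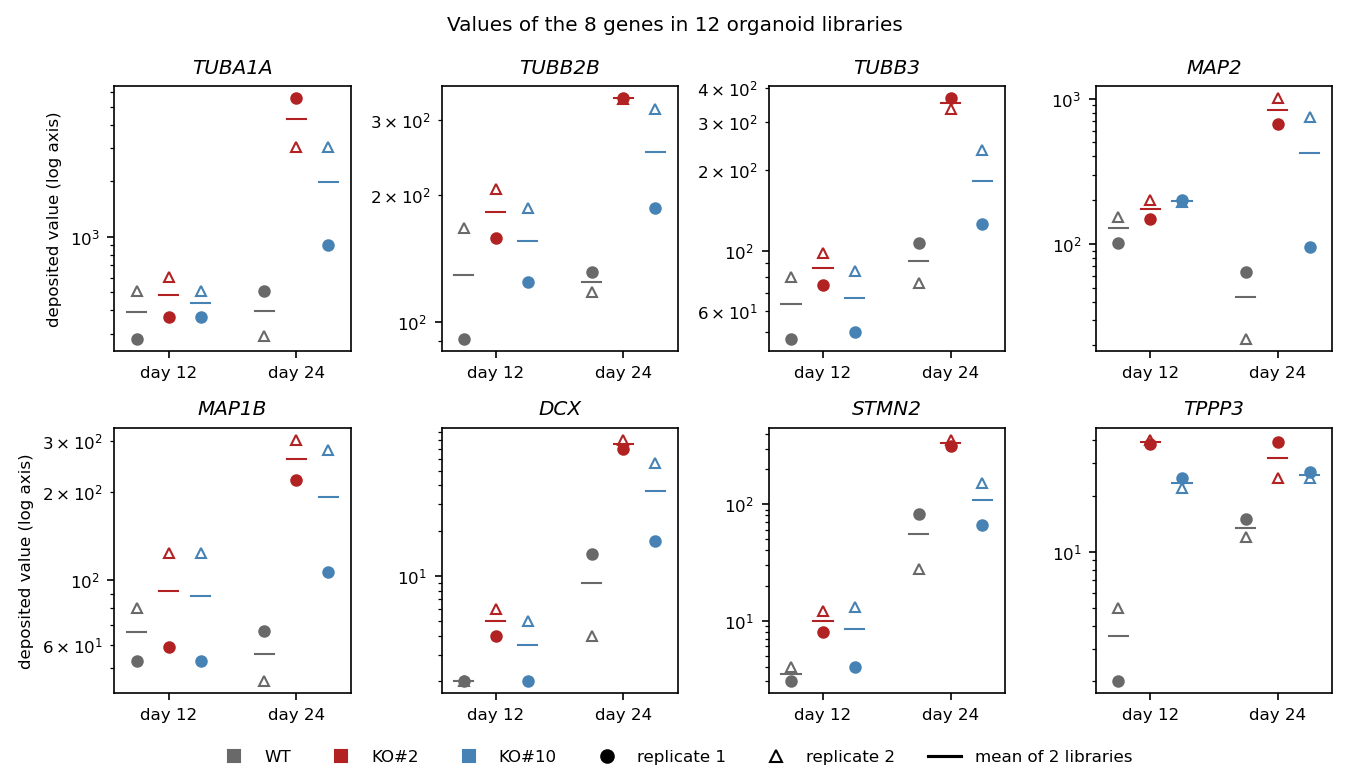
Deposited values (log axis) of the 8 genes in WT, KO#2 and KO#10 COs at day 12 and day 24. Symbols are libraries and lines are means of 2 libraries. At day 24 the KO libraries lie above both WT libraries in every panel except that of STMN2, where KO#10 replicate 1 (66) lies below WT replicate 1 (83).

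Among the tubulins at day 24, *TUBA1A* stood at 508 and 290 in the WT libraries, at 5585 and 3047 in those of KO#2 and at 903 and 3047 in those of KO#10. All 4 KO libraries were above WT, and the log2 fold change was 2.77 (SE 0.66, limma adjusted *p* = 0.038). The value 5585 is the top of the scale in every library and was shared by 8 other genes in KO#2 replicate 1, so that differences between libraries at this end are steps of the normalization and not a fine measure. *TUBB2B* stood at 131 and 118 in the WT libraries, at 338 and 337 in those of KO#2 and at 186 and 318 in those of KO#10. The groups did not overlap, and the log2 fold change was 1.20 (SE 0.26, limma adjusted *p* = 0.032). *TUBB3* stood at 107 and 76 in the WT libraries, at 368 and 336 in those of KO#2 and at 126 and 236 in those of KO#10. All KO libraries were above WT here too, but the spread among them was wide, and a log2 fold change of 1.44 (SE 0.42) did not pass the limma test (adjusted *p* = 0.0591).

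Among the lattice binding proteins, *MAP2* had the largest fold change of the 8. Its day 24 values were 64 and 22 in the WT libraries, 668 and 1009 in those of KO#2 and 95 and 750 in those of KO#10. The KO#10 libraries thus differed from each other more than KO#10 replicate 1 differed from WT, and the log2 fold change was 3.60 (SE 0.94, limma adjusted *p* = 0.0471). *MAP1B* stood at 67 and 45 in the WT libraries, at 220 and 302 in those of KO#2 and at 107 and 279 in those of KO#10. The groups did not overlap, and the difference on the log2 scale was 1.92 (SE 0.42, limma adjusted *p* = 0.0322). *DCX* stood at 14 and 4 in the WT libraries, at 70 and 80 in those of KO#2 and at 17 and 56 in those of KO#10. Every KO library was above WT, with KO#10 replicate 1 close to the higher WT library, and the log2 fold change of 2.51 (SE 0.68) had a limma adjusted *p* of 0.0501, just outside the threshold.

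The remaining members were *STMN2* and *TPPP3*. *STMN2* stood at 83 and 28 in the WT libraries, at 318 and 356 in those of KO#2 and at 66 and 153 in those of KO#10. It was the only one of the 8 whose groups overlapped, and its log2 fold change of 1.91 (SE 0.73) did not pass the limma test (adjusted *p* = 0.106). *TPPP3* stood at 15 and 12 in the WT libraries, at 39 and 25 in those of KO#2 and at 27 and 25 in those of KO#10. Its difference was the smallest of the 8, with a log2 fold change of 1.03, and had the smallest error (SE 0.21, limma adjusted *p* = 0.0301).

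The calls at day 24 depended on single libraries and on the fit. With the replicate number as a block, 3 of the 8 were called (*TUBB2B*, *MAP1B* and *TPPP3*), while *TUBA1A* (limma adjusted *p* = 0.0553) and *MAP2* (0.0604) were not, and *MAP2* was called in 6 of 16 alternatives. Without KO#10 replicate 1, the KO library nearest to WT in these genes, all 8 passed the test, as did 7.86% of all genes in the same direction. The log2 fold change was then 3.28 for *TUBA1A*, 1.76 for *TUBB3*, 4.37 for *MAP2*, 2.99 for *DCX*, 2.40 for *STMN2* and 1.06 for *TPPP3*. Without any one of the other 5 libraries of day 24 (WT replicate 1 or 2, KO#2 replicate 1 or 2, or KO#10 replicate 2), none of the 8 passed. The log2 fold changes with 1 library left out were from 2.36 to 3.28 for *TUBA1A* and from 1.12 to 1.41 for *TUBB2B*, and a single remaining WT library was taken to vary like the KO libraries. The number of genes called higher among all genes moved in the same way, from 392 to 722 without KO#10 replicate 1 and to 145 or fewer without any other library. With each library left out, all 8 log2 fold changes stayed positive.

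With each clone set against WT, all 8 genes were called higher in KO#2 than in WT at day 24, with log2 fold changes from 1.16 (*TPPP3*) to 4.41 (*MAP2*) and limma adjusted *p* between 0.0353 and 0.0463. The share of all genes called higher in that comparison was 4.74%. The count of 8 was 0 without WT replicate 1 or 2 or KO#2 replicate 1 or 2, and 5 without either KO#10 library. It was 2 (*TUBB2B* and *TPPP3*) with the replicate number as a block and 3 (the tubulins) without the filter on low values. In KO#10, the log2 fold changes were from 0.90 (*TPPP3*) to 2.80 (*MAP2*), and limma called none of the 8 (adjusted *p* from 0.122 to 0.319), although 7 of them had an unadjusted *p* under 0.05. There 0.14% of the 9289 genes tested were called higher, and 1220 were higher at an unadjusted *p* under 0.05. These comparisons share the WT libraries. Set against each other directly, KO#2 was above KO#10 by 0.26 (*TPPP3*) to 1.73 (*STMN2*) on the log2 scale. Limma called none of these differences, with adjusted *p* of at least 0.825, and 2 of the 8 had an unadjusted *p* under 0.05. Of all genes, 0% were called higher in KO#2 than in KO#10, with 224 at an unadjusted *p* under 0.05.

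Several markers of neurons and of other cells also differed between KO and WT at day 24. The sum over 16 neuron markers outside the 8 genes was 112 and 126 in WT at day 24, 476 and 544 in KO#2, 448 in KO#10 replicate 2 and 250 in KO#10 replicate 1. In KO#10 replicate 1 these markers were not uniform. *GAP43* was at 56 there and at 52 to 77 in the other KO libraries, whereas *ELAVL3* was at 6, with 7 and 6 in WT. Of the 14 neuron markers tested, all had a positive log2 fold change (median 1.74) and 5 were called higher. Among these 5 were *CNTN2*, an axonal adhesion molecule (log2 fold change 3.12), *NCAM1* (2.06), *ELAVL4*, a neuronal RNA binding protein (1.98), and *GAP43*, a growth cone protein (1.95). In WT, *CNTN2* was at 2 in both libraries and *ELAVL4* at 7 and 4, under the filter value of 10. Both genes entered the test through their KO libraries. Without KO#10 replicate 1, 13 of the neuron markers were called higher, as were 7.86% of all genes. That library was chosen on its day 24 values, so that the larger count is not independent support. Of 10 neural progenitor genes tested, 8 had a positive log2 fold change (median 0.67) and 2 were called higher, *SOX1* (1.79) and *PAX6* (1.15). *SOX1* was low, at 1 and 4 in WT and at 6 to 12 in KO. Several lists of other lineages held genes that were called lower in KO, as were 3.79% of all genes. All 6 pluripotency genes tested were called lower, *TDGF1* by a log2 fold change of -5.64 and *POU5F1* by -4.64. So were 5 of 6 surface ectoderm and epithelium genes, with *EPCAM* at -4.44, and 3 of 6 endoderm and yolk sac genes, with *SERPINA1* at -5.29. The KO values were under the filter value of 10 for *TDGF1* (0 to 1), *POU5F1* (3 to 6) and *EPCAM* (1 to 6). These genes entered the test through their WT libraries. *AFP*, the fetal liver and yolk sac protein, was at 5585 in both WT libraries, at 902 in KO#10 replicate 1 and at 0 to 42 in the other KO libraries. None of 6 mesenchyme genes passed the limma test with all libraries (2 lower and 0 higher at an unadjusted *p* under 0.05), and all 6 were called lower without KO#10 replicate 1, as were 6.8% of all genes. In the mean z-score of the 8 genes over the 12 libraries, KO#10 replicate 1 (0.158) lay between WT (-0.265 and -0.844) and the other KO libraries of day 24 (1.16 to 1.42). The part of these markers in the values of the 8 genes was not tested.

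**Figure D2:**
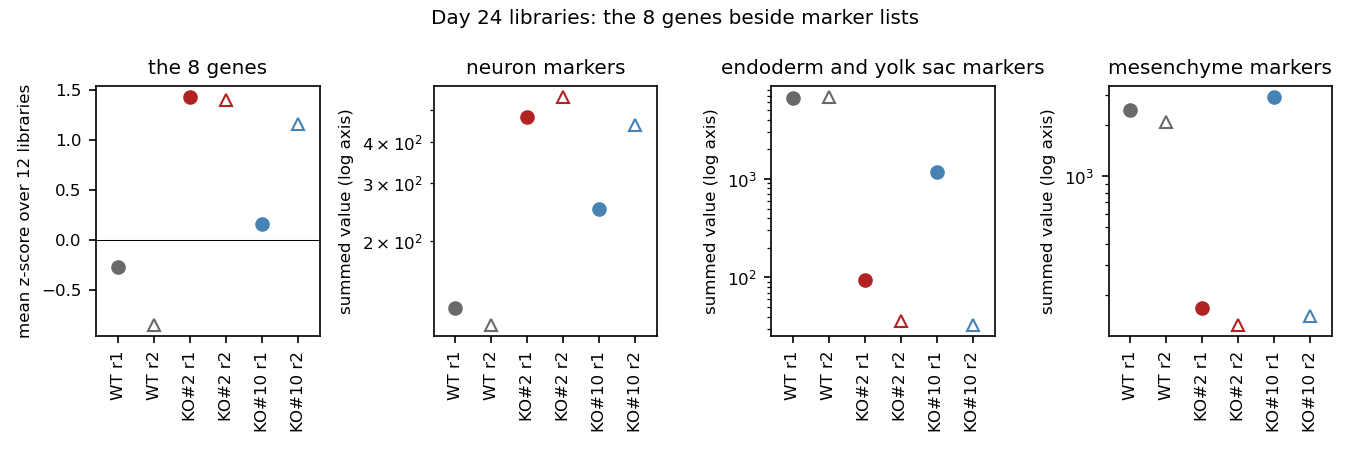
Mean z-score of the 8 genes (left) and summed deposited values of 3 marker lists (log axes) in the 6 libraries of day 24. KO#10 replicate 1 has the lowest member score of the KO libraries (0.158) and mesenchyme (2890) and endoderm (1182) sums far above the other KO libraries.

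The next question was whether the difference was already present at day 12. The test called 1 gene. *TPPP3* stood at 2 and 5 in the WT libraries of that day, at 38 and 40 in those of KO#2 and at 25 and 22 in those of KO#10. The groups were far apart, with a log2 fold change of 2.88 (SE 0.33, limma adjusted *p* = 0.028). Both WT values were under the filter value of 10, so that the gene entered the test through its KO libraries. It was not called without the filter (limma adjusted *p* = 0.0952) or with the clones as separate groups (limma adjusted *p* = 0.0616). Only 0.0225% of the 8885 genes tested at day 12 were called higher, with 529 higher and 451 lower at an unadjusted *p* under 0.05. *TPPP3* was the only 1 of the 7 genes tested that day whose KO libraries all lay above WT, as 8.23% of all genes did. The call was lost without any single library of day 12, while the log2 fold change stayed between 2.38 and 3.38 in all alternatives.

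For the other members tested the ranges of KO and WT overlapped at day 12 when replicate numbers were set aside. *TUBA1A* stood on that day at 279 and 507 in the WT libraries, at 369 and 604 in those of KO#2 and at 370 and 508 in those of KO#10. The log2 fold change was 0.27 (SE 0.29, limma adjusted *p* = 0.816). *MAP2* stood at 102 and 154 in the WT libraries, at 149 and 200 in those of KO#2 and at 200 and 193 in those of KO#10, and the difference on the log2 scale was 0.55 (SE 0.21, limma adjusted *p* = 0.382). *TUBB2B* ranged from 91 to 167 in WT and from 124 to 206 in KO, *TUBB3* from 47 to 80 and from 50 to 98, and *MAP1B* from 53 to 80 and from 53 to 124. Their log2 fold changes were 0.42, 0.28 and 0.35, and none passed the limma test. *STMN2* was near the floor of the filter, at 3 and 4 in WT and at 4 to 13 in KO. *DCX*, at 2 in each WT library and at 2 to 6 in KO, fell under the filter on low values (10 or more in 2 or more libraries) and was not tested. In 5 of these genes (*TUBA1A*, *TUBB2B*, *TUBB3*, *MAP1B* and *STMN2*) replicate 2 was the higher library in each of the 3 lines at day 12. The share of all genes with this order was not determined, so that it cannot be read as particular to these genes. Among libraries with the same replicate number, both KO libraries were above WT in *TUBA1A*, *TUBB2B*, *TUBB3*, *MAP2*, *STMN2* and *TPPP3*, as in 16.1% of all genes tested. With the number as a block, the SE for *TUBA1A* was 0.11 in place of 0.29, and *TPPP3* was still the only member that limma called (adjusted *p* = 0.0215, and 0.118 to 0.426 for the others), with 36 of all genes called higher.

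The change from day 12 to day 24 was fitted within each genotype. In KO, 5 of the 8 genes were called higher at day 24, where 5.88% of 9952 genes were called higher. *STMN2* increased most, from 4 to 13 at day 12 to 66 to 356 at day 24, a log2 fold change of 4.28 (SE 0.51, limma adjusted *p* = 1.17e-04). *DCX* followed, from 2 to 6 up to 17 to 80, at 3.30 (SE 0.47, limma adjusted *p* = 3.42e-04). The day 12 values of *DCX* were all under the filter value, so that it entered this fit through its libraries of day 24. *TUBA1A* was higher by 2.53, *TUBB3* by 1.71 and *MAP1B* by 1.33 on the log2 scale. *TUBB2B* passed the limma test (adjusted *p* = 0.0213) but, at 0.79, was under the 2-fold limit. *MAP2* had a log2 fold change of 1.34 with an adjusted *p* of 0.0928, and *TPPP3* had -0.08, with values of 22 to 40 at day 12 and 25 to 39 at day 24.

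In WT, 2 of the 8 genes were called higher at day 24, where 7.17% of all genes were called higher. They were *STMN2* by 3.46 (SE 0.73, limma adjusted *p* = 0.00549) and *TPPP3* by 1.77 (SE 0.35, limma adjusted *p* = 0.00433). At day 12 WT stood at 3 and 4 for *STMN2* and at 2 and 5 for *TPPP3*, under the filter value of 10. The *TPPP3* call was lost without WT replicate 1 of day 12 (adjusted *p* = 0.0501) and with the WT libraries alone (adjusted *p* = 0.0586). No tubulin member passed the test in WT. *TUBA1A* was at 279 and 507 on day 12 and at 508 and 290 on day 24, with a log2 fold change of 0.03 (SE 0.63), and *TUBB2B* had 0.01 (SE 0.34). *MAP2* was at 102 and 154 on day 12 and at 64 and 22 on day 24, so that both later libraries were below both earlier ones, but the log2 fold change of -1.71 (SE 0.84) did not pass the limma test (adjusted *p* = 0.142). *DCX* was at 2 on day 12 and at 14 and 4 on day 24 (1.53, adjusted *p* = 0.098). Without KO#10 replicate 1 of day 24, which enters this fit through the spread only, *MAP2* was called lower (adjusted *p* = 0.00748) and *DCX* higher (adjusted *p* = 0.0276). Of all 9896 genes tested in that setting, 763 were called higher and 810 lower.

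**Figure D3:**
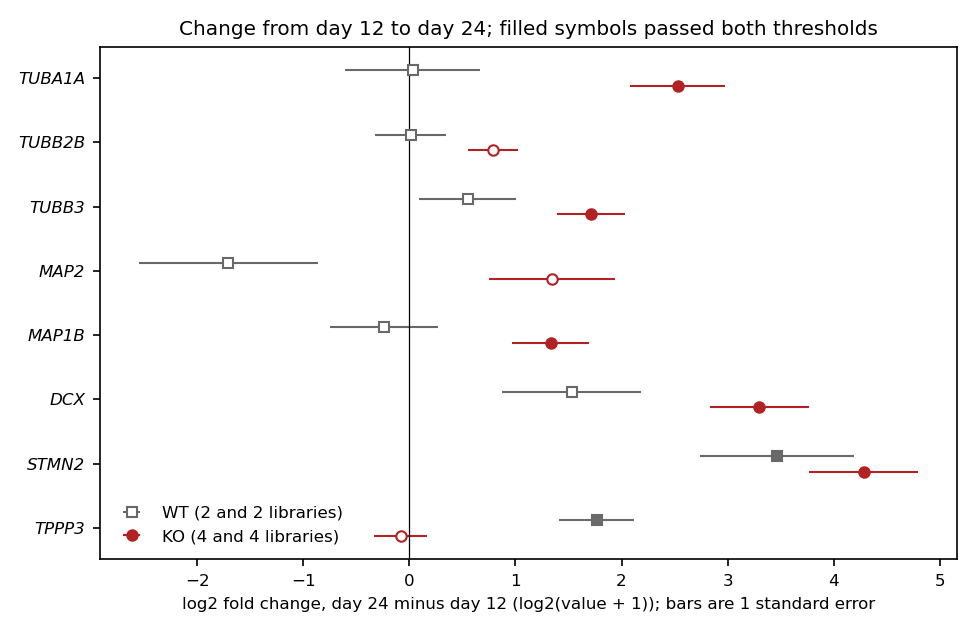
Log2 fold change from day 12 to day 24 (x axis, log2 (value + 1)) in WT and in KO for each of the 8 genes, with bars of 1 standard error. Filled symbols passed both thresholds, 2 in WT (STMN2 and TPPP3) and 5 in KO. MAP2 has a negative change in WT (-1.71) and a positive one in KO (1.34), and TPPP3 is near 0 in KO.

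Whether the KO and WT changes differed was tested with an interaction term of genotype by day on the 12 libraries. Limma called none of the 8 genes in either direction, and at an unadjusted *p* under 0.05 there were 4 with a positive and 1 with a negative interaction. Of all 9952 genes tested, 0.452% were called with a positive and 0.854% with a negative interaction. At an unadjusted *p* under 0.05 there were 1121 with a positive and 1015 with a negative interaction among them. The estimates were 3.05 (SE 1.03, adjusted *p* = 0.125) for *MAP2*, 2.50 (SE 0.78, adjusted *p* = 0.104) for *TUBA1A* and 1.77 (SE 0.81, adjusted *p* = 0.228) for *DCX*. *STMN2*, which was higher at day 24 in both genotypes, had 0.82 (SE 0.89, adjusted *p* = 0.643). *TPPP3* was the only member with a negative value, -1.85 (SE 0.43, adjusted *p* = 0.0546). Without KO#10 replicate 1 of day 24, *MAP2* (3.81), *TUBA1A* (3.01), *DCX* (2.25), *MAP1B* (1.90) and *TUBB3* (1.48) passed with a positive and *TPPP3* (-1.82) with a negative interaction, where 4.23% and 5.02% of all genes were called. *TPPP3* alone passed without KO#2 replicate 1 of day 24 or WT replicate 2 of day 12.

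Across the 6 groups of line and day, KO#2 at day 24 had the highest mean in 7 of the 8 genes, followed by KO#10 at day 24. For *TUBA1A* these means were 4316 ± 1795 and 1975 ± 1516 (SD, n = 2), and for *STMN2* 337 ± 26.9 and 109.5 ± 61.5 (SD, n = 2). The ranges of these 2 groups met at the shared value 3047 in *TUBA1A*, overlapped in *MAP2* and *MAP1B*, and were apart in *TUBB2B*, *TUBB3*, *DCX* and *STMN2*. The share of all genes with such ranges apart was not determined, and limma called none of the 8 different between the clones. Below the KO groups of day 24 the order was not resolved, since most neighbouring groups overlapped. In *MAP1B* all 5 neighbouring pairs did. *TPPP3* had another order, with KO#2 at day 12 first (39 ± 1.41), the 4 KO groups above both WT groups, WT at day 24 below them (13.5 ± 2.12) and WT at day 12 last (3.5 ± 2.12). Among the other 7 genes the Pearson correlation of log2 values over the 12 libraries had a median of 0.87 over 21 pairs, from 0.49 (*MAP2* and *STMN2*) to 0.97 (*TUBB3* and *DCX*). For *TPPP3* it was from 0.41 to 0.61. These points share lines, days and the normalization and are given as a description.

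Of non-member genes with a mean value of at least 10 (8299 genes), those with the pattern most like the mean of the 8 were *CADPS* (r = 0.98 over 12 libraries), *EPHA3*, *ATP6V0E2*, *GPM6A* and *ATP9A* (all 0.98). By single member, the 3 nearest were *MEAF6*, *ACTR1A* and *GABARAP* for *TUBA1A*, and *CADM3*, *WDR82* and *MAPRE2* for *TUBB2B*. They were *RIMS3*, *NOVA2* and *GNAZ* for *MAP2*, *ST8SIA2*, *EVL* and *ATP6V0E2* for *MAP1B*, and *INA*, *ELAVL4* and *ISLR2* for *STMN2*. Among those nearest to *TUBB3* were *GPM6A* and *GABARAP*, and among those nearest to *DCX* were *GPM6A* and *DNER*. For *TPPP3* they were *PRKAA1* (0.95), *FKBP9* (0.93) and *TSC22D3* (0.88), none of which was nearest to another member. *FOXJ1*, the regulator of motile cilia, was at 2 and 3 in WT and at 7 to 17 in KO at day 24 (log2 fold change 1.95, limma adjusted *p* = 0.0244). Both of these WT values were under the filter value of 10. At day 12 it was at 1 to 3 in all 6 libraries, fell under the filter and was not tested. How its values relate to those of *TPPP3* was not tested.

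None of the nearest relatives of the tubulin members was called higher at day 24. *TUBB2A* was at 60 and 73 in WT and at 57 to 110 in KO at day 24 (log2 fold change 0.31, limma adjusted *p* = 0.388), and *TUBB*, the broadly used beta-tubulin, at 424 and 470 in WT and at 470 to 747 in KO (0.33, adjusted *p* = 0.283). *TUBB4B* had -0.09, *TUBB4A* 1.15 (adjusted *p* = 0.105) and *TUBB6* -1.59 (adjusted *p* = 0.0992). Of the alpha-tubulins, *TUBA1B* was at 354 and 368 in WT and at 426 to 750 in KO (0.70, adjusted *p* = 0.0718). *TUBA1C* was called lower, with 158 and 219 in WT and 35 to 94 in KO (log2 fold change -1.72, limma adjusted *p* = 0.0301). In all, 1 of 11 other tubulins tested was called lower and none was called higher by limma, with 2 higher and 2 lower at an unadjusted *p* under 0.05, and their median log2 fold change was -0.09. Without KO#10 replicate 1, *TUBB4A* was called higher and *TUBA1C* and *TUBB6* lower, where 7.86% of all genes were called higher and 6.8% lower. Within a library, the log2 ratio of *TUBA1A* to *TUBA1B* lay between -0.61 and -0.15 in all 6 libraries of day 12, at -0.34 and 0.52 in WT at day 24 and between 0.71 and 3.71 in KO at day 24. The log2 ratio of *TUBB2B* to *TUBB2A* was 0.69 and 1.11 in WT at day 24, 1.61 to 1.98 in KO at day 24 and 1.97 to 2.80 at day 12. For *TUBA1A* the ratio was highest in KO at day 24 and for *TUBB2B* it was lowest in WT at day 24, which was not tested.

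Of 22 other lattice binding genes tested, 5 were called higher in KO at day 24 and none lower, with a median log2 fold change of 0.61. *MAP6*, a stabiliser of cold-resistant microtubules, was at 7 and 17 in WT and at 33 to 52 in KO (1.86), *DCLK1*, the doublecortin-like kinase, at 6 and 7 and at 12 to 31 (1.59), and *DPYSL4* at 16 and 24 and at 43 to 63 (1.40). *MAP1A*, the relative of *MAP1B*, was at 4 and 5 in WT and at 8 to 16 in KO (1.36), values under or near the filter. Both WT values of *DCLK1* were also under the filter value of 10, so that it entered the test through its KO libraries. *MAPT* (tau) had 1.31 (limma adjusted *p* = 0.0905), *MAP4* 0.29 and *MAP1S* -0.23, and *TPPP* was too low to test. The number called higher was 9 without KO#10 replicate 1, then with *MAPT*, where 7.86% of all genes were called higher. Of the stathmins, *STMN3* was called higher, at 10 and 15 in WT and 24 to 41 in KO (1.34, adjusted *p* = 0.0236). *STMN1* was at 154 and 167 in WT and 243 to 396 in KO and passed the limma test (adjusted *p* = 0.0327) at a log2 fold change of 0.90, under the 2-fold limit, and *STMN4* had 1.68 (adjusted *p* = 0.061). *STMN3* was the only one of the 9 genes of stathmins and severing enzymes called. Without KO#10 replicate 1, 3 of them were called higher, beside the same 7.86% of all genes.

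Of 19 genes for proteins of the plus and minus ends 1 was called higher, *MACF1*, a linker of actin and microtubules (1.12), and *CLASP2* had 1.92 with a limma adjusted *p* of 0.0866. Without KO#10 replicate 1, 5 were called higher and 1 lower, where 7.86% and 6.8% of all genes were called. Of 15 tubulin modifying enzymes 3 were called higher, *VASH1*, a detyrosinating carboxypeptidase (1.46), *ATAT1*, the acetyltransferase of alpha-tubulin (1.21), and *TTLL3*, a glycylase (1.04). Both WT values of *TTLL3* were 6, under the filter value of 10, so that it entered the test through its KO libraries. None of 19 genes of tubulin folding and nucleation was called with a 2-fold difference by limma (3 higher and 2 lower at an unadjusted *p* under 0.05), with *TBCB* at 0.15 and *MZT2B* at 0.11. Chosen after their values were seen, *ARL2* (-0.91, limma adjusted *p* = 0.0196) and *TUBGCP4*, of the gamma-tubulin ring complex (0.60, adjusted *p* = 0.0425), passed the test under the 2-fold limit. None of 11 LIS1 and dynein genes was called (5 higher and 0 lower at an unadjusted *p* under 0.05), with *DYNC1I2* at 0.09 and *DYNC1H1* at 0.38. At day 12 none of the 97 genes of these 7 lists that could be tested was called by limma, with 4 higher and 3 lower at an unadjusted *p* under 0.05. In the interaction with day, *DCLK1* (2.23, adjusted *p* = 0.0432) and *STMN3* (1.97, adjusted *p* = 0.0367) were the 2 genes of the 109 tested that were called. *DCLK1* reached the filter value of 10 only in KO libraries of day 24, so that it entered the test through the group where it was high.

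**Figure D4:**
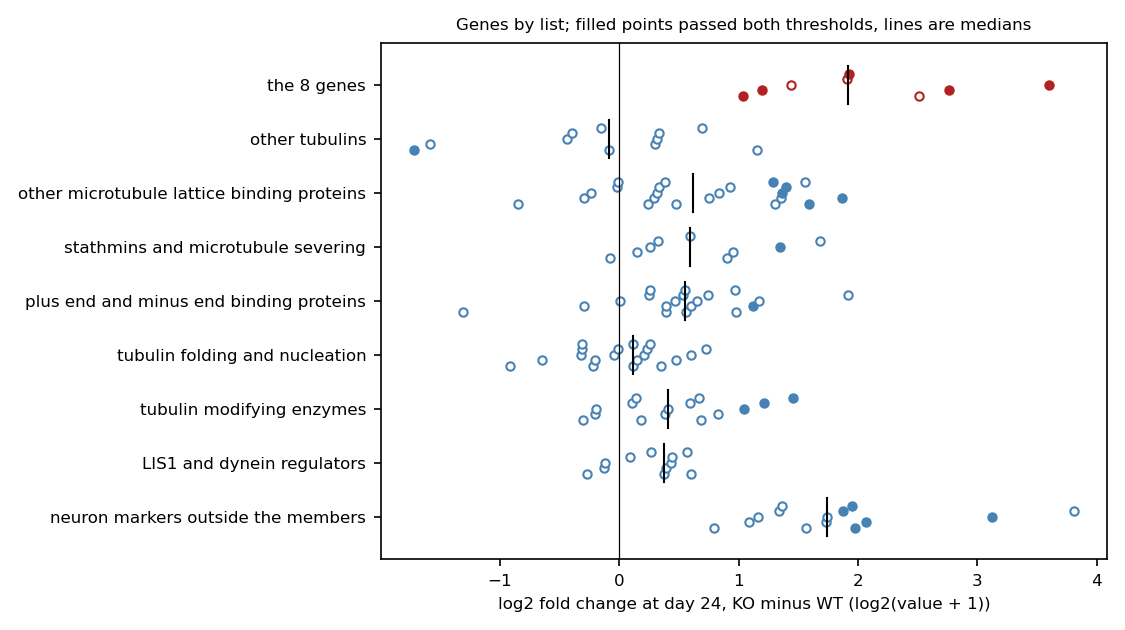
Log2 fold change of KO against WT at day 24 (x axis, log2 (value + 1)) for the 8 genes, for 7 lists of other microtubule genes and for neuron markers. Points are genes, filled points passed both thresholds and black lines are medians. The median is 1.92 for the 8 genes, -0.09 for other tubulins and 1.74 for neuron markers.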

How the data were processed

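Total RNA was depleted of ribosomal RNA and sequenced from strand-specific libraries. The authors deposited 1 whole-number score per gene and library for 10976 genes, and per the labels these were made with bcl2fastq, Bowtie2 and RSEM, listed without versions or order. The submitters' notes name the build mm10, whereas the listed intervals carry human genes in GRCh38 positions. The normalization and the counting of strand are not given in the sources used here. Because the scores shared 1 distribution across libraries, they were not treated as counts, and no column was left unmapped. Values were transformed as log2 (value + 1). A gene entered a comparison when 2 or more of its libraries reached a value of 10, and the fits used limma 3.58.1 (lmFit and eBayes with trend, R 4.3.3), with Benjamini-Hochberg adjustment over all genes tested. KO and WT were compared within each day, days within each genotype and their interaction over 12 libraries, and clones in a fit with 3 groups. The script was tested on simulated data. Members, gene lists and tests were chosen with earlier results of these data known. The genes named were the 8 members and their closest relatives, up to 4 called genes of each list with the largest change (or its highest genes until 2 were named), and the genes of most similar pattern, plus *AFP*, *TPPP* and *FOXJ1* beside their lists. Alternatives were other filters, a pseudocount of 0.1, other variance estimates, centring, transcript length correction, a replicate block, other groupings and each library left out. Tables were made with Python 3.11.15, pandas 2.3.3, numpy 2.4.6 and matplotlib 3.10.9. Not every gene that the rule on likeness selects is reported here.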

Additional observations from a re-analysis of the deposited data

Results flagged for a closer look

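In 3 cases a single library lay far from the other KO libraries of its day, by Dixon's ratio of the gap to the range of 4 libraries. At day 12, *MAP2* had 149 in KO#2 replicate 1 and 193 to 200 in the other KO libraries (ratio 0.863). At day 24, *TUBB2B* had 186 in KO#10 replicate 1 and 318 to 338 in the others (ratio 0.868), and *TPPP3* had 39 in KO#2 replicate 1 and 25 to 27 in the others (ratio 0.857). By chance about 1 group in 20 gives such a case, and 8 genes were examined on each of 2 days.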

How the results depend on the processing

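At day 24 the count of members called higher was 5 with all libraries. It was 4 to 6 under the other filters, pseudocount, variance estimates, centring, length correction and clone grouping. With all 12 libraries in 1 fit it was 8, where 537 of all 9289 genes were called higher in place of 392. It was 0 to 8 with each library left out, 8 without KO#10 replicate 1 and 0 without any other. At day 12 the count of 1 became 0 without the filter, with the clones as separate groups and without each library in turn. In the interaction the count with a positive value was 0 to 5 with each library left out, and that with a negative value was 1 with the robust variance and 0 to 1 with each library left out. In WT from day 12 to day 24 the count of 2 called higher became 1 with the WT libraries alone, was 3 with the length correction and 1 to 3 with each library left out, and 1 was called lower without KO#10 replicate 1 of day 24 and 0 without each other library. For KO#2 against WT the count of 8 was 3 without the filter and 0 to 5 with each library left out. Some small differences turned direction. With each library left out, the day 12 difference was -0.16 to 0.70 for *TUBA1A*, -0.013 to 0.86 for *TUBB2B* and -0.10 to 0.65 for *TUBB3*, negative without WT replicate 1. In WT over time the length correction gave -0.19 for *TUBA1A*, -0.18 for *TUBB2B* and 0.26 for *MAP1B*, and leaving out single libraries gave -0.40 to 0.46 for *TUBA1A*, -0.42 to 0.45 for *TUBB2B* and -0.53 to 0.051 for *MAP1B*. *TPPP3* over time in KO was -0.23 to 0.046, positive without KO#2 replicate 1 or 2 of day 12. Between the clones, *TPPP3* was -0.053 (without KO#2 replicate 1) to 0.57 and *MAP1B* -0.11 (without KO#10 replicate 1) to 1.26. The cause was not tested. Of the other values of single members in the alternatives at day 24, 87 kept direction and call, 31 lost the call and 10 gained it. Depth is unknown, and values near 10 or lower, as of *DCX* at day 12, are coarse whole numbers.

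The replicate numbers of the labels are not stated to mark a shared batch. Deviations of libraries with the same number correlated at day 12 with r of 0.349 for KO#2 with WT, 0.337 for KO#10 with WT and 0.509 for the clones, and at day 24 with 0.193, -0.094 and 0.303. With the replicate block, 3 members were called higher at day 24, 1 at day 12 (with 36 genes of all in place of 2), 2 for KO#2 against WT, and 1 with a negative interaction. The block changed no count of members in the other comparisons. Over all genes it called 158 with a positive and 210 with a negative interaction (45 and 85 without it), 266 higher for KO#2 against WT (440 without it) and 0 for KO#10 against WT (13 without it). With 6 groups of line and day in 1 fit these clone counts were 697 and 201.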
